A study of Mus musculus with 6 samples.

Results

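The sirtuins are the 7 genes *Sirt1* to *Sirt7*, taken by symbol from GENCODE M21 out of 54232 gene identifiers in the count files. All 7 were found, and all 7 were among the 14133 genes with enough counts to be tested. Transcripts of these genes were compared in the heart ventricle of wild-type C57BL/6J mice on a western diet (WD). All 6 mice were fed WD for 15 weeks and were then needle fed for 3 weeks, 3 mice with Tributyrin at 5 g/kg body weight and 3 with vehicle, which the labels call PBS. Tributyrin is a triglyceride that releases butyrate. The labels and methods do not give the age and sex of these 6 mice. Every library held 1571 to 2559 counts of the Y-linked *Ddx3y* and at most 6 of *Xist*, the level of male tissue, so the groups did not differ in this respect. No mice on normal chow were analysed here. The comparison addresses what Tributyrin does to transcripts in the heart of obese mice.

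Sirtuins are enzymes that use NAD+ to remove acetyl and related acyl groups from lysines, or to transfer ADP-ribose. They are sorted by where the protein mainly sits in the cell, with SIRT1, SIRT6 and SIRT7 in the nucleus, SIRT2 in the cytosol, and SIRT3, SIRT4 and SIRT5 in mitochondria. In the heart they are studied for their part in fuel use, oxidative stress and hypertrophy. The other histone deacetylases (HDACs) need zinc instead of NAD+, and butyrate is a known inhibitor of several of those.

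The enzymes share a catalytic core, and the coding stretch of its NAD+-binding motif shows how alike the 7 genes are. The stretches below come from the longest principal coding transcript of each gene (GENCODE M21, build GRCm38, 5′ to 3′ in the sense of the gene), and capitals mark the 12 bases that are identical in all 7.
Sirt1: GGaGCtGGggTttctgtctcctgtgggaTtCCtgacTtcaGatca
Sirt6: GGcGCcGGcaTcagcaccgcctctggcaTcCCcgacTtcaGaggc
Sirt7: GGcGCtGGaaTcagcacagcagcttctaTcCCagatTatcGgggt
Sirt2: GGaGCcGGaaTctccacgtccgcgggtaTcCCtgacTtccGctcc
Sirt3: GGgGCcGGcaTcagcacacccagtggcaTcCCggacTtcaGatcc
Sirt4: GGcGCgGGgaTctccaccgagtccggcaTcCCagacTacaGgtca
Sirt5: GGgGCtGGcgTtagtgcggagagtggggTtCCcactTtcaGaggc

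The stretch of *Sirt1* lies at chr10:63331862-63335644 on the minus strand, that of *Sirt6* at chr10:81625895-81626530 (minus) and that of *Sirt7* at chr11:120622185-120624507 (minus). The stretch of *Sirt2* lies at chr7:28776881-28777021 on the plus strand. Those of the mitochondrial members lie at chr7:140877879-140877997 for *Sirt3* (minus), chr5:115482893-115482937 for *Sirt4* (minus) and chr13:43371888-43371932 for *Sirt5* (plus). Every stretch is coding exon, and 5 of the 7 cross an intron, which is why their coordinates span more than 45 bases. Between pairs of members the stretches were 40.0% to 82.2% identical, lowest for *Sirt1* with *Sirt7* and highest for *Sirt3* with *Sirt6*. Over whole principal transcripts the longest run shared by any pair was 10 to 14 bases. The reads were 50 bases long, and no run of 50 bases is shared by any 2 sirtuins, so a read without mismatches cannot be exchanged between members.

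Reads can still be shared with other genes. Runs of 50 bases that also occur in transcripts of another gene made up 10.6% of those of *Sirt3*, shared with its opposite-strand neighbours *Ric8a* and *Psmd13*, and 14.2% of those of *Sirt5*, shared with 721 genes. The share was 1.44% for *Sirt7*, 1.01% for *Sirt1*, 0.209% for *Sirt2*, and 0 for *Sirt4* and *Sirt6*. Exons of *Sirt7* overlap *Mafg* on the same strand by 124 bases, and also the microRNA gene *Mir6936*, which had 0 counts. Exons of *Sirt3* overlap *Ric8a* by 418 bases and *Psmd13* by 342 bases, both on the opposite strand. Those of *Sirt2* overlap *Nfkbib* by 42 bases and those of *Sirt1* overlap *Gm16145* by 65 bases, also on the opposite strand, and *Gm16145* had 0 counts in every library. The libraries were stranded, but no source used here gives the strand setting of the counting. Counts of *Sirt3* and *Sirt2* could thus gain or lose reads in the bases shared with these neighbours. For *Sirt7* and *Mafg*, on the same strand, reads in the shared bases cannot be told apart with any strand setting.

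The libraries held 20369746 to 32734485 counts on genes, and no pair differed by as little as sampling noise. Ventricular cardiomyocyte markers were abundant in every library (6 of 6 markers, summed level 46400 to 50400 CPM, counts relative to the library total after TMM scaling). An unadjusted p under 0.05 (edgeR) was found for 2 of these 6, 1 of 5 fibroblast and 1 of 5 smooth muscle and pericyte markers. Of all genes tested 4.25% had such a p. Adipocyte markers reached at most 3.0 CPM in sum. The summed level of 6 atrial markers was 182, 172 and 53.8 CPM with vehicle and 31, 64.4 and 46.3 CPM with Tributyrin. Of the 5 atrial markers tested, 4 had an unadjusted p under 0.05 (edgeR), well above the 4.25% of all genes. *Bmp10*, 1 of these 6 markers, had at most 1 count, while the sum of all 6 was highest in vehicle mice 1 and 2. The part of these differences in the results for the sirtuins was not tested. The share of mitochondrially encoded RNA was 24.7% ± 1.57 with vehicle and 27.5% ± 1.46 with Tributyrin (SD, n = 3 each).

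No sirtuin passed the test for a difference between Tributyrin and vehicle. By edgeR's quasi-likelihood test 0 of 7 passed an FDR of 10%, and all 7 had an adjusted p of 0.999, as 0% of all 14133 genes tested passed. At an unadjusted p under 0.05 there were also 0 of 7, where 4.25% of all genes passed. In 0 of 7 did the mice of the groups fall into separate ranges, where 8.94% of all genes did. The log2 fold change (Tributyrin over vehicle) was above 0 for 4 of 7, against 49.6% of all genes. The 7 values lay between −0.042 and 0.13, beside a median size of 0.088 and a median standard error (SE) of 0.121 over all genes. In whole ventricle, fewer cells of a type and less RNA per cell cannot be told apart.

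**Figure D1:**
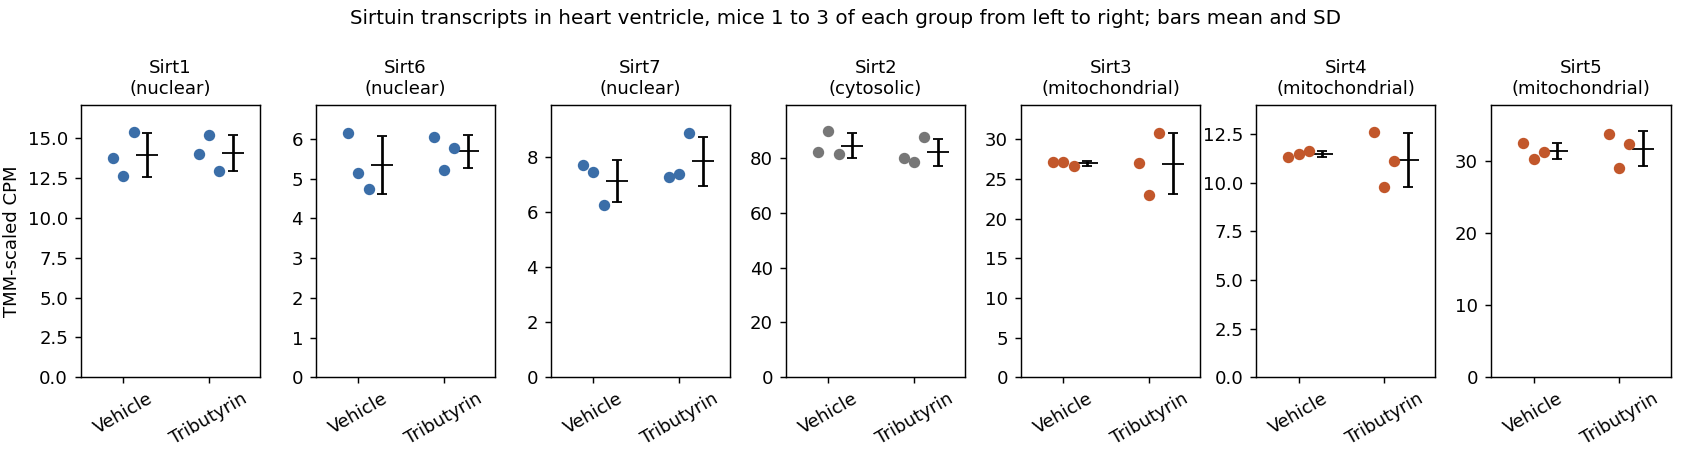
TMM-scaled CPM (y axis, from 0, a scale per gene) of each sirtuin in the 3 vehicle and 3 Tributyrin mice, in the order of their replicate numbers. Points are mice, bars the mean and SD, and colours the compartment of the protein. In every panel the groups overlap, and the *Sirt3* and *Sirt4* points lie closer together with vehicle than with Tributyrin.

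Among the nuclear members, *Sirt1* (ENSMUSG00000020063, chr10:63319005-63381704) encodes the deacetylase of transcription factors and coactivators such as PGC-1α. Its level was 13.79, 12.64 and 15.42 CPM with vehicle and 14.02, 15.24 and 12.97 CPM with Tributyrin. The highest and the lowest mouse were both vehicle mice, so the Tributyrin range lay inside that of vehicle. The means were 13.95 ± 1.4 and 14.08 ± 1.13 CPM (SD, n = 3 each), with a log2 fold change of 0.019 (SE 0.111, 95% interval −0.23 to 0.26).

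*Sirt6* (ENSMUSG00000034748, chr10:81621785-81627797) encodes a histone deacetylase of chromatin, known for restraining glycolytic genes. It was the member with the fewest counts, 100 to 175 per library. Its level was 6.165, 5.155 and 4.731 CPM with vehicle and 6.051, 5.23 and 5.788 CPM with Tributyrin. Vehicle mouse 1 was the highest of the 6 and the other vehicle mice were the lowest. The log2 fold change was 0.086 (SE 0.145, 95% interval −0.23 to 0.41). Without vehicle mouse 1 the groups no longer overlapped and Tributyrin was the higher. A range can only narrow when a mouse is left out, and the share of all genes apart in this setting was not computed.

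*Sirt7* (ENSMUSG00000025138, chr11:120618372-120625240) encodes the nucleolar sirtuin, linked to transcription of ribosomal RNA genes. Its level was 7.706, 7.453 and 6.245 CPM with vehicle and 7.296, 7.392 and 8.878 CPM with Tributyrin. The lowest value was vehicle mouse 3 and the highest Tributyrin mouse 3, and the other 4 mice lay close together between them. It had the largest log2 fold change of the family, 0.13 (SE 0.133, 95% interval −0.16 to 0.43), which is about 1 SE.

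*Sirt2* (ENSMUSG00000015149, chr7:28766735-28788661) encodes the cytosolic deacetylase, for which tubulin is a known substrate. It was by far the best counted member, with 1725 to 3053 counts per library. Its level was 82.24, 89.93 and 81.61 CPM with vehicle and 80.05, 78.76 and 87.87 CPM with Tributyrin. Vehicle mouse 2 and Tributyrin mouse 3 stood above the other 4. The means were 84.59 ± 4.63 and 82.23 ± 4.93 CPM (SD, n = 3 each), with a log2 fold change of −0.042 (SE 0.0758, 95% interval −0.21 to 0.13). Without Tributyrin mouse 3 the groups no longer overlapped and Tributyrin was the lower. Leaving out a mouse can only narrow a range, and the share of all genes apart without this mouse was not computed.

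Among the mitochondrial members, *Sirt3* (ENSMUSG00000025486, chr7:140863666-140882309) encodes the main deacetylase of the matrix, which acts on enzymes of fatty acid oxidation and on SOD2. Its level was 27.15, 27.1 and 26.59 CPM with vehicle and 27.01, 23.01 and 30.81 CPM with Tributyrin. The vehicle mice were close to each other, while Tributyrin mice 2 and 3 were the lowest and the highest of the 6. The means were the same to 4 digits, 26.95 ± 0.31 and 26.95 ± 3.9 CPM (SD, n = 3 each), and the log2 fold change was −0.0023 (SE 0.105, 95% interval −0.24 to 0.23).

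*Sirt4* (ENSMUSG00000029524, chr5:115478010-115484725) encodes a mitochondrial ADP-ribosyltransferase and lipoamidase, known for inhibiting glutamate dehydrogenase. Its level was 11.3, 11.49 and 11.64 CPM with vehicle and 12.6, 9.798 and 11.14 CPM with Tributyrin. The vehicle mice again lay close together, with Tributyrin mouse 1 above them and the other 2 Tributyrin mice below. The log2 fold change was −0.038 (SE 0.115, 95% interval −0.29 to 0.22). Without Tributyrin mouse 1 the groups no longer overlapped and Tributyrin was the lower. As for *Sirt6* and *Sirt2*, the share of all genes apart in this setting was not computed.

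*Sirt5* (ENSMUSG00000054021, chr13:43365496-43395203) encodes the enzyme that removes succinyl, malonyl and glutaryl groups from mitochondrial proteins. Its level was 32.45, 30.22 and 31.23 CPM with vehicle and 33.67, 28.94 and 32.29 CPM with Tributyrin. Both the highest and the lowest value were Tributyrin mice. The log2 fold change was 0.016 (SE 0.0831, 95% interval −0.17 to 0.20).

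Two-sided exact permutation tests of the scaled CPM gave p = 0.5 for *Sirt2*, 0.6 for *Sirt6* and *Sirt7*, 0.7 for *Sirt4*, 0.8 for *Sirt1* and 1.0 for *Sirt3* and *Sirt5*, and with 3 mice against 3 the smallest p they can give is 0.1. The intervals say what size of difference these 6 mice leave room for. They were narrowest for *Sirt2*, from 13.6% lower to 9.16% higher with Tributyrin, and for *Sirt5*, from 11% lower to 14.9% higher. For *Sirt3* the interval ran from 15.0% lower to 17.3% higher, for *Sirt4* from 18.3% lower to 16.2% higher and for *Sirt1* from 14.6% lower to 20.1% higher. For the least counted members it reached further up, to 32.6% higher for *Sirt6* and 34.4% higher for *Sirt7*, with lower ends of 15.0% and 10.8% lower. A doubling or halving of any member thus lay outside its interval, while small differences in either direction lay inside it.

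**Figure D2:**
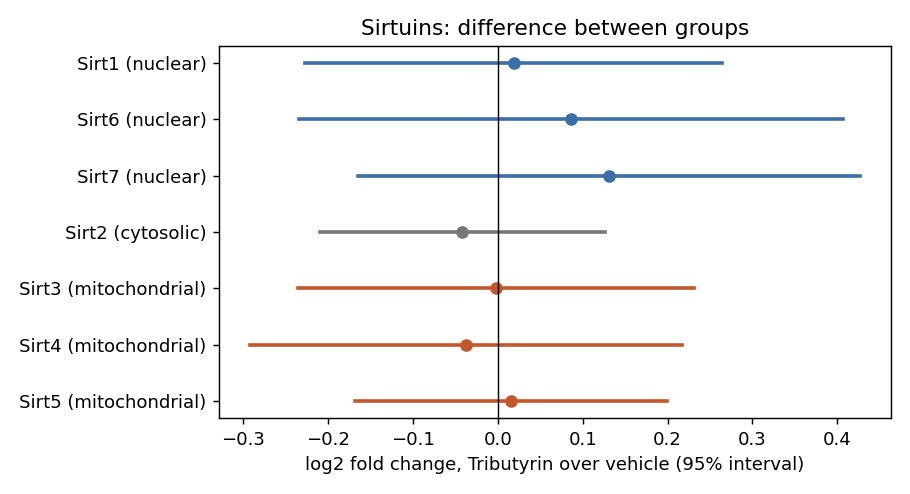
Log2 fold change, Tributyrin over vehicle (x axis), of the 7 sirtuins (y axis), with points for the edgeR estimate from 3 mice per group and lines for its 95% interval. All 7 intervals cross 0, with *Sirt7* highest at 0.13 and *Sirt2* lowest at −0.042.

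By compartment, the 3 nuclear members had log2 fold changes above 0 (0.019, 0.086 and 0.13, median 0.086), the cytosolic member was below 0 (−0.042), and the 3 mitochondrial members were at −0.038, −0.0023 and 0.016 (median −0.002). None of these passed the test, and the median of all genes was −0.0013. Scaled by library size alone, *Sirt1* and *Sirt5* were below 0 as well, which left 2 of 7 above 0.

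Levels of different genes were compared per length, as scaled CPM per kb of merged exons, averaged over the 6 mice. *Sirt2* was highest at 16.6 ± 0.89 (SD, n = 6), above 86.3% of genes tested. The mitochondrial members followed with *Sirt5* at 5.16 ± 0.28, *Sirt4* at 4.72 ± 0.38 and *Sirt3* at 4.51 ± 0.41 (SD, n = 6 each), and the nuclear members were lowest with *Sirt1* at 2.63 ± 0.21, *Sirt6* at 1.98 ± 0.2 and *Sirt7* at 1.46 ± 0.16 (SD, n = 6 each). The ranges over mice overlapped between *Sirt5* and *Sirt4*, between *Sirt4* and *Sirt3* and between *Sirt6* and *Sirt7*, though *Sirt5* was above *Sirt4* and *Sirt6* above *Sirt7* within each of the 6 libraries. The other neighbours in this order did not overlap.

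The order within a compartment depended on the length used. The other length was that of the principal transcript, which leaves out the exons of other isoforms. Only the length changed, and the counts were still those of the whole gene. Per kb of this length *Sirt2* was at 45.3, *Sirt5* at 22.5, *Sirt3* at 18.4, *Sirt4* at 6.31, *Sirt7* at 4.34, *Sirt1* at 3.16 and *Sirt6* at 2.92. *Sirt4* thus dropped from level with *Sirt3* to well below it, and *Sirt7* went from the lowest nuclear member to the highest. On both lengths *Sirt2* was first, each mitochondrial member was above each nuclear one, and *Sirt5* was the highest of the mitochondrial members. The principal transcript of *Sirt3* encodes 257 residues, with the NAD+-binding motif from residue 3. Counts per gene do not separate isoforms, and all counts of *Sirt3* were placed with the mitochondrial members.

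**Figure D3:**
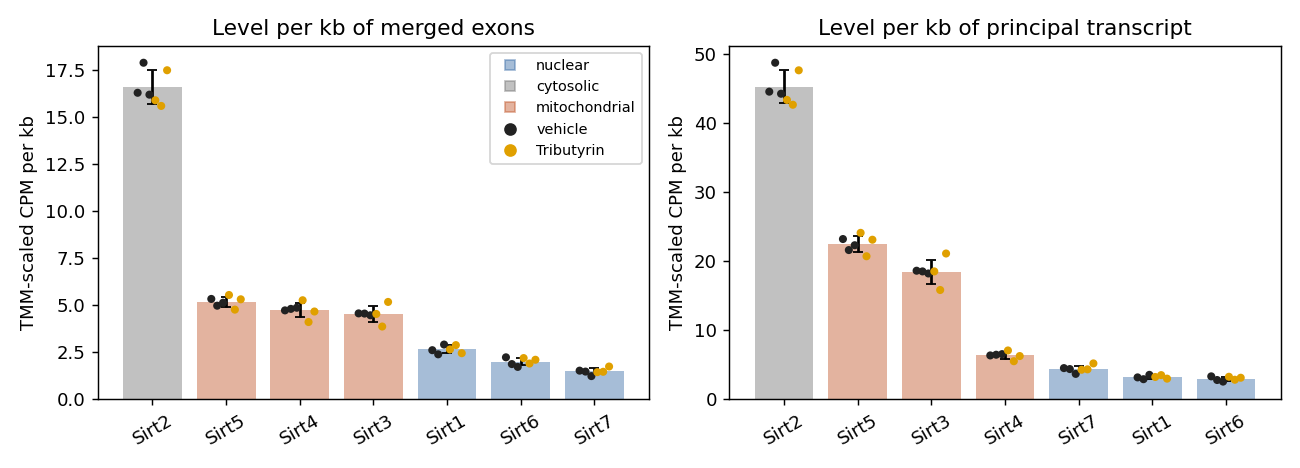
Mean TMM-scaled CPM per kb (y axis, from 0) of the 7 sirtuins over 6 mice, with SD bars and a point per mouse, per length of merged exons (left) and of the principal transcript (right). Bar colours give the compartment. *Sirt2* leads on both at 16.6 and 45.3. On the right *Sirt4* comes after *Sirt3*, and *Sirt7* comes before *Sirt1* and *Sirt6*, unlike on the left.

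Summed by compartment per kb of merged exons, the nuclear members gave 6.3, 5.67 and 5.81 with vehicle and 6.22, 6.17 and 6.24 with Tributyrin. The mitochondrial members gave 14.6, 14.3 and 14.4 with vehicle and 15.3, 12.7 and 15.1 with Tributyrin. Groups overlapped in both sums, and Tributyrin mouse 2 held the lowest mitochondrial sum. The log2 ratio of mitochondrial to nuclear level was 1.21, 1.33 and 1.31 with vehicle and 1.3, 1.04 and 1.28 with Tributyrin, or 1.29 ± 0.066 and 1.2 ± 0.14 (SD, n = 3 each). *Sirt2* made up 45.2% ± 1.8 of the family sum with vehicle and 44.3% ± 1.6 with Tributyrin (SD, n = 3 each).

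The members varied in how far mice of a group differed. With vehicle the coefficient of variation (CV) was 1.15% for *Sirt3* and 1.47% for *Sirt4*, below the mean CV of 3.77% and 5.81% that counting error alone gives at their depth. With Tributyrin it was 14.5% and 12.5%. *Sirt5* had 3.56% with vehicle and 7.69% with Tributyrin. The CV differed little between the groups for *Sirt2* (5.48% and 5.99%) and *Sirt7* (10.9% and 11.3%), and was the larger with vehicle for *Sirt1* (10% and 8.06%) and *Sirt6* (13.8% and 7.37%). With 3 mice per group these spreads were not compared by a test, and each CV includes counting error.

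All 3 mitochondrial members had their lowest value in Tributyrin mouse 2, where their log2 CPM minus the mean of the 6 mice was −0.223 (*Sirt3*), −0.205 (*Sirt4*) and −0.119 (*Sirt5*). *Sirt2* also had its lowest value in this mouse, at −0.081, while *Sirt1* stood 0.125 above its mean. Without this mouse the log2 fold change was 0.10 for *Sirt3* and 0.051 for *Sirt4* (edgeR adjusted p = 0.747 and 0.914), and −0.042 for *Sirt1* (adjusted p = 0.939).

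**Figure D4:**
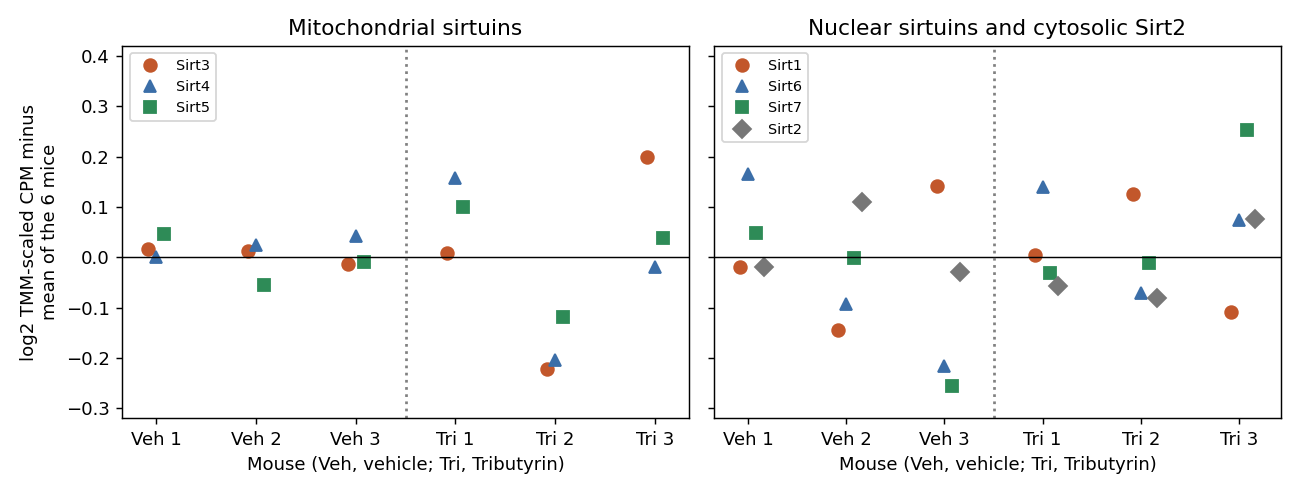
Log2 TMM-scaled CPM of each sirtuin in each of the 6 mice (x axis), minus the mean of the 6 (y axis), for mitochondrial members (left) and the others (right). Points are genes, and the dotted line divides vehicle from Tributyrin. All 3 mitochondrial members are lowest in Tributyrin mouse 2, at −0.223, −0.205 and −0.119, as is *Sirt2* at −0.081.

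Correlations over the 6 mice were computed for the 21 pairs of members on log2 scaled CPM, with permutation p-values. None held after adjustment over the 21 pairs (smallest adjusted p = 0.438 for Pearson's r and 0.432 for Spearman's rho). The pair with the smallest p was *Sirt1* and *Sirt2*, with r = −0.86 (exact permutation p = 0.0278) and rho = −0.83 (exact permutation p = 0.0583), and r was −0.91 without vehicle mice 2 and 3. *Sirt4* and *Sirt5* had r = 0.81 (exact permutation p = 0.0611) and rho = 0.54 (exact permutation p = 0.297), and without Tributyrin mice 1 and 2 r was −0.7. *Sirt3* and *Sirt5* went from r = 0.67 to 0.18 without Tributyrin mice 2 and 3. The 2 mice left out were those furthest from the median of the first gene of the pair. In most of the pairs r grew in size without these mice, and in the others it shrank, as for *Sirt3* and *Sirt5*. Such a choice leaves few mice, so no conclusion is drawn from these values. All points share their library and its scaling, and within a group of 3 mice no correlation was computed.

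The genes whose pattern over the 6 mice was most like that of a sirtuin were found among 9698 genes with a mean of at least 5 CPM, by Pearson's r. They were *Prkcd* (r = 0.985) and *Kdm6b* (0.980) for *Sirt1*, *Ttc30b* (0.993) and *Nmd3* (0.990) for *Sirt6*, and *Yipf1* (0.981) and *Bnip1* (0.980) for *Sirt7*. For *Sirt2* they were *Tcta* (0.991) and *Ppm1m* (0.987). For the mitochondrial members they were *Timm9* (0.998) and *Pde6d* (0.992) for *Sirt3*, *Nup88* (0.998) and *Insig2* (0.986) for *Sirt4*, and *Mtrf1l* (0.992) and *Dnase2a* (0.989) for *Sirt5*. No sirtuin was among the 2 genes most like another. With 6 points and this many genes such values describe these mice only.

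Around the sirtuins, genes that make, convert, carry or use NAD+, that regulate SIRT1, and that encode known sirtuin substrates were counted in the same fit. None of them passed an FDR of 10%, and all had an adjusted p of 0.999. At an unadjusted p under 0.05, where 1.97% of all genes were higher and 2.28% lower with Tributyrin, the counts for each list are given below as a description.

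The list of NAD+ supply, which holds enzymes of NAD+ synthesis, the NAD+ kinases *Nadk* and *Nadk2* and the mitochondrial NAD+ carrier *Slc25a51*, had 10 of 12 members tested (*Nmnat2* and *Qprt* had too few counts), with 0 past p under 0.05 and a median log2 fold change of 0.067. *Nampt*, the rate-limiting enzyme of the salvage route, was at 226.6 ± 10.7 CPM with vehicle and 242.0 ± 18.5 CPM with Tributyrin (SD, n = 3 each). *Nmrk1*, a nicotinamide riboside kinase, had the highest log2 fold change, 0.22 (SE 0.176), and was 2.964, 2.739 and 2.271 CPM with vehicle and 3.097, 3.243 and 3.003 CPM with Tributyrin. These groups did not overlap, and 1 of the 10 genes tested is close to the 8.94% of all genes. *Naprt*, which starts from nicotinic acid, had the lowest at −0.13 (SE 0.136).

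Other users of NAD+ (PARPs, tankyrases and NAD+ hydrolases), together with *Nnmt*, which methylates nicotinamide, had 8 of 9 members tested (not *Sarm1*), with 0 past p under 0.05 and a median of −0.06. *Bst1* was highest at 0.40 (SE 0.349) on 21 to 57 counts per library, and *Nnmt* lowest at −0.36 (SE 0.278). All 4 regulators of SIRT1 were tested, with 0 past p under 0.05 and a median of −0.084. *Rps19bp1*, which encodes the activator AROS, was highest at 0.014 (SE 0.143). *Hic1*, a repressor of *Sirt1* transcription, was lowest at −0.21 (SE 0.108).

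Among substrates of mitochondrial sirtuins, 11 of 12 genes were tested (not *Cps1*), and 1 had an unadjusted p under 0.05, higher with Tributyrin (median of the list 0.053). *Acadl*, the long-chain acyl-CoA dehydrogenase, was 1233, 1161 and 1144 CPM with vehicle and 1348, 1290 and 1319 CPM with Tributyrin. Every Tributyrin mouse was above every vehicle mouse, with a log2 fold change of 0.16 (SE 0.0666, edgeR adjusted p = 0.999), the highest of the list. Scaled by library size alone it was 0.090 (SE 0.0613), and the unadjusted p was not under 0.05, nor was it without Tributyrin mouse 1, vehicle mouse 2 or vehicle mouse 3. *Glud1*, glutamate dehydrogenase, had groups apart in the other direction, at 155.2, 154.4 and 161.9 CPM with vehicle and 148.6, 153.3 and 149.3 CPM with Tributyrin, with a log2 fold change of −0.063 (SE 0.0642). Counting both, 2 of the 11 genes tested had groups apart, against 8.94% of all genes. *Ppif*, the regulator cyclophilin D of the permeability pore, had the lowest value, −0.11 (SE 0.0839).

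Among substrates of nuclear and cytosolic sirtuins, 11 of 11 genes were tested and 2 had an unadjusted p under 0.05, both lower with Tributyrin (median of the list −0.007). *Foxo1*, a transcription factor of metabolism and stress response, was 27.51, 31.22 and 26.68 CPM with vehicle and 23.13, 26.39 and 23.2 CPM with Tributyrin. The groups were apart by a narrow gap, with a log2 fold change of −0.23 (SE 0.0939, edgeR adjusted p = 0.999). The unadjusted p was not under 0.05 without Tributyrin mouse 1, Tributyrin mouse 3 or vehicle mouse 2. *Trp53*, which encodes p53, was 13.79, 12.14 and 13.39 CPM with vehicle and 10.46, 11.12 and 10.27 CPM with Tributyrin. All Tributyrin mice were below all vehicle mice, with a log2 fold change of −0.30 (SE 0.102, edgeR adjusted p = 0.999). Its unadjusted p was not under 0.05 without vehicle mouse 1. Counting *Foxo1* and *Trp53*, 2 of the 11 genes tested had groups apart, against 8.94% of all genes. *Ppargc1a*, which encodes PGC-1α, was highest at 0.12 (SE 0.124). These are transcripts, and deacetylation of the proteins was not measured.

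The 11 zinc-dependent HDACs are the other deacetylase family, and all were tested. Their median log2 fold change was −0.002 and 1 of 11 had an unadjusted p under 0.05. *Hdac8*, a class I member, was 2.45, 2.474 and 2.602 CPM with vehicle and 3.452, 3.138 and 3.612 CPM with Tributyrin, on 55 to 97 counts per library. The groups were apart, with a log2 fold change of 0.44 (SE 0.166, edgeR adjusted p = 0.999). It was the 1 gene of the 11 with groups apart, near the 8.94% of all genes. The unadjusted p was not under 0.05 by DESeq2, by library size alone, or without Tributyrin mouse 1 or 3 or vehicle mouse 1 or 2. *Hdac6*, the other cytosolic tubulin deacetylase beside SIRT2, was lowest at −0.25 (SE 0.118). Whether the sirtuins and these HDACs differ in response was not tested.

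**Figure D5:**
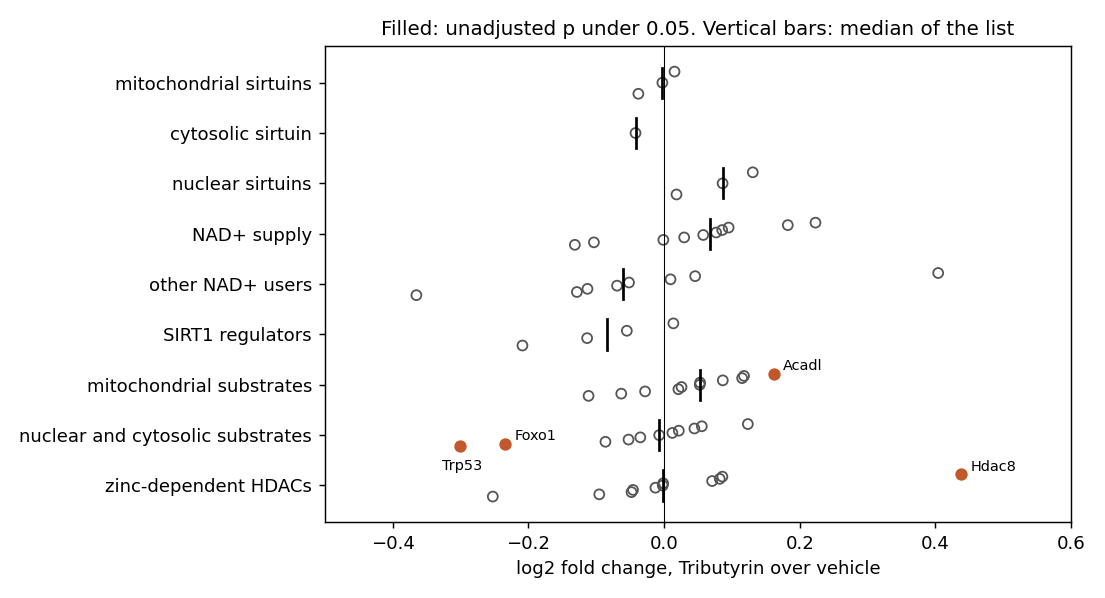
Log2 fold change, Tributyrin over vehicle (x axis), of every gene tested in the sirtuin compartments and in the 6 lists around them (y axis). Each point is a gene from 3 mice per group, filled where the unadjusted p was under 0.05, and vertical bars are list medians. No sirtuin is filled, and the 4 filled genes are *Acadl*, *Foxo1*, *Trp53* and *Hdac8*.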

How the data were processed

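Stranded mRNA libraries of heart ventricle were sequenced as single-end reads of 50 bases. The authors deposited raw counts per Ensembl gene. According to the submitters' processing notes, cutadapt 1.13, STAR, HTSeq 0.6.1p1, DESeq2 1.14.1 and mm10 were used. Of 54232 identifiers, 54165 matched GENCODE M21 (GRCm38), from which lengths and sequences were taken. 0 lines named no gene.

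Counts were compared with edgeR 4.0.16 (quasi-likelihood test, no covariate, TMM scaling, filterByExpr with minimum count 10 and minimum total 15, Benjamini-Hochberg adjustment over 14133 genes) in R 4.3.3. Thresholds were an FDR of 10%, with 5% beside it, and an unadjusted p of 0.05. Intervals of 95% use the moderated spread. Deeper libraries weigh more. Nothing says that mice were independent beyond their labels, so p-values measure the spread between these samples.

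Alternatives were RLE scaling, library size alone, no filter, a mean CPM of at least 5, DESeq2 1.42.0, limma-voom (limma 3.58.1), a block for the replicate number, and each mouse left out in turn. The length of the principal transcript was added after seeing the data. The deviations of same-numbered mice of the groups correlated at r = 0.27 (number 1), 0.06 (number 2) and 0 (number 3). For mice of different numbers r ran from −0.25 to 0.18. The members and lists were chosen with earlier results of these data known. The named genes were the 7 sirtuins, members of each list with an unadjusted p under 0.05 or the highest or lowest log2 fold change, the 2 genes most like each sirtuin, and overlapping genes. *Nampt*, *Glud1*, *Nadk*, *Nadk2*, *Slc25a51*, *Ddx3y*, *Xist* and *Bmp10* were named outside this rule, after their values were seen.

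The test was checked on simulated data for this comparison (3 simulations, 200 changed genes, about 14117 genes tested). At an FDR of 10% it recovered 13.4% of genes changed by 0.3 on the log2 scale and 85.6% of those changed by 1. These rates depend on the 200 changed genes put in. They need not hold for the real comparison, where no gene passed. Other groups of the study were not analysed here. Values of a single gene are not reported here, and it was left out of its list.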

Additional observations from a re-analysis of the deposited data

How the results depend on the processing

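No sirtuin passed an FDR of 10% or an unadjusted p under 0.05 under any of the 13 alternatives, and their adjusted p ranged from 0.747 to 1.0. All 7 fold changes were smaller than their SE, and the direction of 5 of 7 turned under some setting. With library size alone the log2 fold change was −0.052 for *Sirt1* and −0.057 for *Sirt5*, and 2 of 7 were above 0. This scaling moved the median of all genes to −0.074. Without the filter *Sirt3* was at 0.0014. With 1 mouse left out, values ran from −0.051 to 0.094 for *Sirt1*, −0.089 to 0.0049 for *Sirt2*, −0.11 to 0.10 for *Sirt3*, −0.13 to 0.051 for *Sirt4* and −0.027 to 0.077 for *Sirt5*. *Sirt6* (0.012 to 0.20) and *Sirt7* (0.040 to 0.19) stayed above 0. The number of sirtuins whose groups did not overlap ran from 0 to 1 with 1 mouse left out. The share of all genes in those settings was not computed. With the replicate number as a block, *Sirt1* was at 0.021, *Sirt2* at −0.042, *Sirt3* at −0.013 and *Sirt7* at 0.13, 2 of all genes passed 10%, and no call on a sirtuin differed.

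Over all genes, 0 passed 10% by edgeR (600 at an unadjusted p under 0.05), 167 passed without the filter and 11 by DESeq2, and 0 to 3 with 1 mouse left out. At p under 0.05 there were 1178 without the filter, 367 at a mean CPM of at least 5, and 389 (without vehicle mouse 3) to 1360 (without Tributyrin mouse 2) with 1 mouse left out. By library size alone 1 of the 4 regulators of SIRT1 (*Hic1*) had p under 0.05, *Ppif* took the place of *Acadl* and *Hdac6* that of *Hdac8*, and by DESeq2 0 of the HDACs had p under 0.05. The log2 ratio of mitochondrial to nuclear level was 2.23 with vehicle and 2.14 with Tributyrin per principal transcript. Apart from the changes shown by these settings' own construction, the cause was not tested. Counting error was largest for *Sirt6*, up to 10% in a library.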
